A study of Mus musculus with 2 samples.

Results

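The genes described here are 49 listed genes of growth factor signalling through receptor tyrosine kinases: fibroblast growth factor (FGF) and platelet-derived growth factor (PDGF) ligands and receptors, a few other receptors with their ligands, the core of the RAS-MAPK cascade, and the feedback inhibitors and target genes of that cascade. They were chosen by name from the pathway with earlier results of these data known, so their shares beside those of all genes only describe the list. Each gene is represented by its single-gene probe set with the highest mean log2 signal over both arrays. A single-gene probe set measured 45 of the 49, among 18193 genes measured in all, and 40 of the 45 lay above the expression filter, as did 11960 of all genes. Etv1 has no expression value because its 3 probe sets also name a second gene, and no single-gene probe set measured Frs2, Hras or Mapk3. Etv1, Frs2 and Hras still count among the start regions described below.

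Expression was measured on Affymetrix arrays in PGK12.1, a female mouse embryonic stem cell line that the labels derive from blastocysts of a 129 female and a (129 X PGK)F1 male, at passage 14-18. One group was undifferentiated (day 0) PGK12.1 cells, grown with leukemia inhibitory factor on embryonic fibroblast feeders and then on gelatin. The other was PGK12.1 cells after 15 days of differentiation as embryoid bodies, aggregates in which several lineages form side by side. Both groups were of the same line, both had feeders removed by adhesion to gelatin, and each was 1 array. The study asked how the X chromosome is expressed during differentiation, and Fgf13 is the only measured X-linked gene of the list.

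FGF, PDGF and related ligands bind receptor tyrosine kinases, which recruit adaptors such as GRB2 and GAB1 and, through exchange factors, load RAS with GTP. RAS then activates the RAF, MEK and ERK kinases. ERK activity induces transcription factors of the PEA3 family as well as Sprouty proteins and dual-specificity phosphatases, which damp the same pathway. In embryonic stem cells, FGF4 acting through ERK is known for preparing the cells to leave the naive pluripotent state, while PDGF receptors mark mesenchymal cells and, for PDGFRA, primitive endoderm.

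The arrays carry no replicate, so each difference below is described by its size in this pair of samples and has no error between cultures and no test. The number of arrays limits the precision. Both arrays had a trimmed mean signal of 250. The difference of a gene is its log2(signal + 16) at day 15 minus that in undifferentiated cells, and a gene counts as higher or lower when this reaches 2-fold. Folds are ratios of the signals themselves. Where the dimmer signal lay below 35.6, the highest signal of 15 bacterial control probe sets without target, the fold is written as at least the brighter signal over 35.6. In bulk RNA, fewer cells of a type and less RNA per cell cannot be told apart. The undifferentiated sample and the day 15 sample both had signals over 35.6 for 10 of 10 stem cell markers, with summed signals of 56049 and 31970.

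The largest gains among the 40 genes above the filter were of the PDGF receptor genes Pdgfrb and Pdgfra and of the phosphatase gene Dusp4, and the largest losses of Rasgrp2, Fgf17, Gab1 and Etv5. Past the 2-fold limit on the higher side at day 15 were 9 genes (22.5%), against 16.5% of all genes above the filter. On the lower side were 8 (20.0%), against 8.41% of all genes. The median difference of the 40 was 0.46 on the log2 scale, against 0.00052 over all genes. At a 1.5-fold limit 20 were higher (50%, against 26.2% of all genes) and 10 lower (25%, against 21.0%). At 3-fold 5 were higher (12.5%, against 9.42%) and 5 lower (12.5%, against 1.83%). Scaling the arrays on their hybridization controls, which moved the median of all genes to -0.36, left 5 genes higher and 9 lower, so that 35.7% of the genes past 2-fold were higher in place of 52.9%. After quantile normalization 7 genes of the list were higher and 9 lower, a share of 43.8% higher. Over all genes that share was 66.3% as deposited, 54.6% after quantile normalization, which moved the median of all genes to -0.13, and 37.7% on the hybridization controls.

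**Figure D1:**
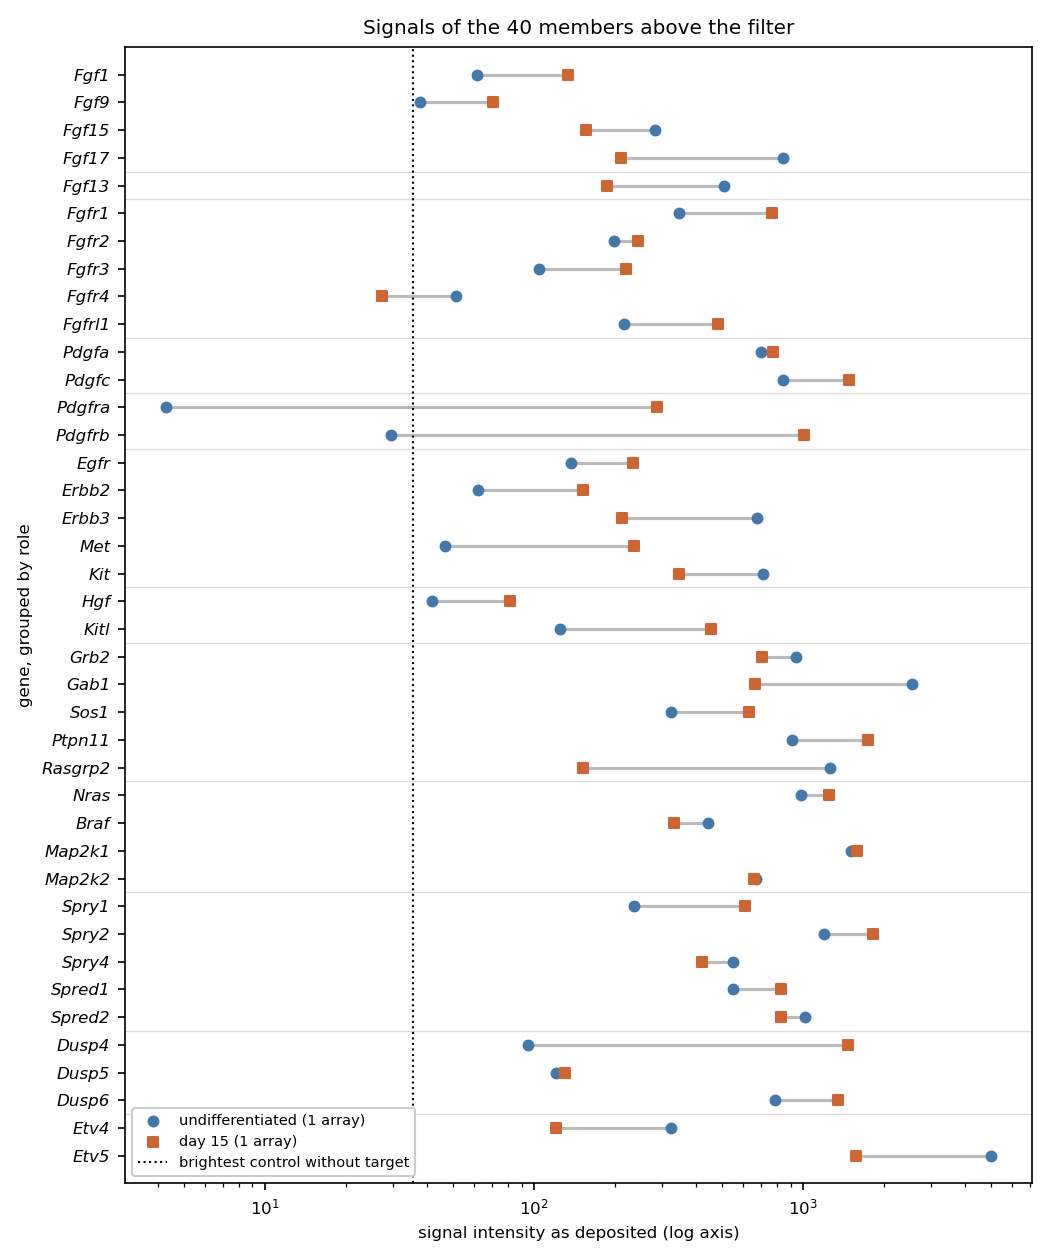
Signal intensity (log axis) of the 40 genes above the filter, grouped by role, on the undifferentiated array (circles) and the day 15 array (squares), with 1 array each and no error bars. The dotted line marks the brightest control without target (35.6): Pdgfra (4.3) and Pdgfrb (29.4) lie left of it in undifferentiated cells and far right of it at day 15. Signals of different probe sets are not comparable as levels of RNA.

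The start regions of the genes with the largest changes are shown as sequence context. For each direction they belong to the 3 genes past 2-fold with the largest difference among those with an entry in the RefSeq promoter table used here (build GRCm38.p6), which held 38 of the 49 genes. Each runs from 250 bases before to 50 bases after the annotated start, read along the gene, and the upstream start is shown where several are annotated. Capitals mark matches on either strand to CCGGAA, a core of ETS factor sites, or TGANTCA, the core of AP-1 sites. The first 3 genes were higher at day 15 and the last 3 lower.
Pdgfra, chr5:75152001-75152300, plus strand: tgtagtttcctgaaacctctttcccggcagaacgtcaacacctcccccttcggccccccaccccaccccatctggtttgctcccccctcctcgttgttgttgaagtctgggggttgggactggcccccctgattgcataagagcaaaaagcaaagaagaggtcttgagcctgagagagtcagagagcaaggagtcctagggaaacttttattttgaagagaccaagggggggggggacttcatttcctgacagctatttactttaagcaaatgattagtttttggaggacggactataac
Met, chr6:17463707-17464006, plus strand: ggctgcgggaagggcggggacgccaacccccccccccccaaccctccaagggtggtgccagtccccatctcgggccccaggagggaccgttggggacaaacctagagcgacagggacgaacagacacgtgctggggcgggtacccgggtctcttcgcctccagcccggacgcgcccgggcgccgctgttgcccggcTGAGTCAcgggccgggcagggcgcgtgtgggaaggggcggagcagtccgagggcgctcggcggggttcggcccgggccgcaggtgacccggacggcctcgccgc
Kitl, chr10:100015571-100015870, plus strand: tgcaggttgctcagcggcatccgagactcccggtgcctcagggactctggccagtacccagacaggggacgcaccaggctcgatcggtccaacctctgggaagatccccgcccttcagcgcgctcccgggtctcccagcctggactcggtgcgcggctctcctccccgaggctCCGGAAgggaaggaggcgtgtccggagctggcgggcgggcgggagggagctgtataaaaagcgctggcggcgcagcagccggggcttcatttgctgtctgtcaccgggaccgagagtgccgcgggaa
Rasgrp2, chr19:6399625-6399924, plus strand: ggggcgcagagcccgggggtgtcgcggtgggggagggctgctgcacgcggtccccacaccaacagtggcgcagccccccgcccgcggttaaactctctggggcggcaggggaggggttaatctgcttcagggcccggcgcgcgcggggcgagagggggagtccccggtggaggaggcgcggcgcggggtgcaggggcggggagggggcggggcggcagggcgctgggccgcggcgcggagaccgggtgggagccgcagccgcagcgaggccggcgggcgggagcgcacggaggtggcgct
Gab1, chr8:80880470-80880769, minus strand: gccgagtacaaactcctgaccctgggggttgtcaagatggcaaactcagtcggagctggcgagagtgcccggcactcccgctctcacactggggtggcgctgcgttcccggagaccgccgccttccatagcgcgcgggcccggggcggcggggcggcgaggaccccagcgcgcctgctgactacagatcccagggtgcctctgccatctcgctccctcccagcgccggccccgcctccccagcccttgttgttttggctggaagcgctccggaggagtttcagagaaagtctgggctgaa
Etv5, chr16:22439521-22439820, minus strand: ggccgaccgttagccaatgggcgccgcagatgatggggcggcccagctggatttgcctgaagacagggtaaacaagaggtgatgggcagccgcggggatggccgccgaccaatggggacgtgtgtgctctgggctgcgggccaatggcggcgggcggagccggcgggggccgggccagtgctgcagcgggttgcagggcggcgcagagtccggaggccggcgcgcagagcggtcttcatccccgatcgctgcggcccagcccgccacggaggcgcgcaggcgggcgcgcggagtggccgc

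Among these 6 windows, Kitl held the ETS core once, beginning 77 bases before the start, and Met held the AP-1 core once, beginning 54 bases before it. The other start of Rasgrp2 (chr19:6401455-6401754) held the ETS core. Over the 50 windows of the 38 genes, 11 (22%) held the ETS core, against 14.9% of 32851 windows of all genes, and 2 (4%) held the AP-1 core, against 7.81%. The 11 windows belonged to 11 genes, among them Spry2, Sos1, Ptpn11 and Egfr. A match describes letters in this window only. Guanine and cytosine made up 51.0% of the Pdgfra window and 80.0% of the Rasgrp2 window.

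Both PDGF receptor genes were below the control signal of 35.6 in undifferentiated cells and well above it at day 15. Pdgfrb, the receptor that binds PDGF-B and is typical of pericytes and fibroblasts, read 29.4 before differentiation and 1007 at day 15, at least 28.3-fold higher (difference 4.49). A second Pdgfrb probe set read 3.3 and 157.3. Pdgfra, the receptor for PDGF-A and PDGF-C among others, read 4.3 and 286.8, at least 8.06-fold higher (3.90). The remaining Pdgfra probe sets were too dim for the filter but had the same direction, one at 12.9 and 65.7 and another at 7.1 and 45.7. Differences as large or larger than that of Pdgfrb were found in 0.753% of all genes, and than that of Pdgfra in 1.3%.

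The PDGF ligand genes differed far less between the arrays than the receptor genes. Pdgfa read 696.7 and 774.2 (1.11-fold higher), and a second probe set read 403.0 and 356.2, in the opposite direction. Pdgfc, a ligand of PDGFRA, read 844.5 and 1483 (1.76-fold higher, difference 0.80), with a second probe set at 439.0 and 902.7. Neither ligand reached 2-fold through the probe set that represents it.

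Most markers of mesenchymal cells were higher at day 15 along with the PDGF receptors, and their part in the result was not tested. Of 12 fibroblast and mesenchyme markers, 11 passed the filter and 10 of them were past 2-fold on the higher side (median difference 5.31). Their signals summed to 5459 before differentiation and 58040 at day 15, with 7 and 11 of the 12 over 35.6. The 3 with the highest mean log2 signal were Vim (3030 and 13529), Fn1 (1924 and 6841) and Col5a1 (140.7 and 6208). None was at 0, and in undifferentiated cells Col1a1, Postn, Lum, Fap and Prrx1 lay below 35.6 (17.2, 25.6, 10.2, 16 and 18.4). Fap stayed below it at day 15 (11.1), and Thy1 hardly differed between the arrays (143.5 and 144.5). The smooth muscle and pericyte list had 8 of 10 genes above the filter and 7 higher (median 3.84), with sums of 1545 and 29954, 5 and 8 of 10 over 35.6, and Acta2, Cald1 and Tagln highest on average. The visceral and primitive endoderm list had 10 of 12 above the filter and 5 higher (median 1.35, sums 527 and 3853, 7 and 11 of 12 over 35.6). Dab2 (56.9 and 928.3) and Gata6 (24.1 and 823.9) were highest on average. Of the 10, 8 had positive differences and 2 negative ones, Amn (154.2 and 72) and Sox7 (80 and 75).

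Of the 5 FGF receptor and receptor-like genes, Fgfr1 and Fgfrl1 passed 2-fold on the higher side (40%, against 16.5% of all genes). Both stayed under the limit in some alternative settings. Fgfr1, the main FGF receptor of mesenchyme and stem cells, read 347.5 before differentiation and 765.2 at day 15 (2.20-fold higher, difference 1.10). Its other probe sets above the filter also read higher at day 15, by less (0.69 and 0.45). The last of these is the only one whose name does not end in _a_at, _s_at or _x_at, endings that mark probes able to match several transcripts. Fgfrl1, a receptor-like protein that lacks the kinase domain, read 215.5 and 484.8 (2.25-fold higher, 1.11), while its second probe set gave 0.56. Fgfr3 read 104.7 and 219.7, a signal ratio of 2.10 whose log2 difference of 0.97 fell short of the limit. Fgfr2 differed by 0.27 and Fgfr4, dim on both arrays (51.4 and 27.3), by -0.64.

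Of 9 FGF ligand genes 4 were above the filter, and Fgf17 was the one whose log2(signal + 16) difference reached 2-fold (25% of the 4 lower, against 8.41% of all genes). Fgf17, a ligand of the FGF8 subfamily, read 842.3 before differentiation and 210.9 at day 15 (3.99-fold lower, difference -1.92), and its second probe set read 485.8 and 127.0. Fgf15, a secreted FGF that acts as a hormone in the adult, read 282.3 and 156.4 (1.80-fold lower, -0.79). Fgf1 went the other way at 61.3 and 134.0, a signal ratio of 2.19 whose log2 difference of 0.96 was under the limit, and a second probe set had a ratio of 2.03. Fgf9 also had a positive difference, at 37.6 and 70.7 (0.69). Fgf2, Fgf7, Fgf8, Fgf10 and Fgf18 lay below the filter with signals between 2.8 and 38.2, so they get no call. Fgf13 belongs to the FGF family by sequence but acts inside the cell, where it binds sodium channels, and it read 507.2 and 187.5 (2.71-fold lower, -1.36). Its second probe set had a difference of -1.11.

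Among the other receptor genes, Erbb3 and Kit were lower and Met and Erbb2 higher. Erbb3, a neuregulin receptor with little kinase activity of its own, read 671.9 before differentiation and 211.8 at day 15 (3.17-fold lower, difference -1.59). Kit, the receptor for stem cell factor, read 707.6 and 345.1 (2.05-fold lower, -1.0), just past the limit, and its second probe set had -0.57. Its ligand gene Kitl had the opposite direction, at 125.3 and 454.8 (3.63-fold higher, 1.74), with a second probe set at 65.9 and 163.7. Met read 46.9 and 235.5 (5.02-fold higher, 2.0), and Hgf, which encodes its ligand, 41.7 and 81.6 (0.76). Erbb2, the partner receptor of the ERBB family with no known ligand, read 62.1 and 152.8 (2.46-fold higher, 1.11).

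Egfr depended on the probe set. The brightest on average, which represents the gene, read 137.3 and 234.2 (1.71-fold higher, difference 0.71). Of the other probe sets above the filter, one read 23.7 and 311.3 (at least 8.74-fold higher), one 32.4 and 291.7 (at least 8.19-fold) and one 19.5 and 96.0 (at least 2.70-fold). The last, at 51.3 and 25.2, went the opposite way. The representing probe set has a name ending in _a_at, and with such names left out the difference of Egfr was 2.67.

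The epithelial and germ line marker lists moved as follows beside these receptors, and whether they bear on Erbb3 and Kit was not tested. Of 8 epithelial markers 7 passed the filter, with 3 higher and 3 lower (median -0.39, sums 8082 and 7120). Cdh1, Epcam and Krt18 had the highest means, at 3956 and 1882, 2394 and 876.7, and 329.4 and 1575. All 5 measured germ line markers had negative differences, 2 of them past 2-fold (median -0.94, sums 2068 and 872), with Tfap2c at 1232 and 448.8. The melanocyte and neural crest list had 1 of 4 genes above the filter higher and 0 lower (sums 407 and 607), and the blood and endothelium list 0 higher and 2 lower of 6 (sums 706 and 675). Neural progenitor markers had 3 higher and 2 lower of 7 (sums 2002 and 2578).

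Adaptors and exchange factors between receptor and RAS were split. Gab1, a docking protein that gathers SHP2 and PI3-kinase at active receptors, read 2538 before differentiation and 663.4 at day 15 (3.83-fold lower, difference -1.91). All 3 of its probe sets gave nearly the same value, between -1.99 and -1.91. Rasgrp2, an exchange factor best known for activating the RAS relative RAP1 in platelets, had the lowest difference of the list, at 1263 and 151.7 (8.33-fold lower, -2.93), and 0.0251% of all genes lay as low or lower. Its probe sets read 463.9 and 75.9, and 969.2 and 113.7, while a dim one read 50.1 and 40.1. Grb2, the adaptor that brings SOS to receptors, read 943.1 and 706.6 (-0.41), with a second probe set at -1.10. Ptpn11, which encodes SHP2, was 1.91-fold higher (910.5 and 1739). The exchange factor gene Sos1 had 2 probe sets above the filter in opposite directions, at 322.6 and 629.6, and at 246.4 and 131.7.

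The measured genes of the kinase cascade itself did not reach 2-fold in either direction. Map2k1 and Map2k2, which encode MEK1 and MEK2, read 1512 and 1586, and 668.7 and 658.3. Nras read 983.9 and 1249 (1.27-fold higher) and Braf 442.2 and 330.2 (1.34-fold lower). The differences of these 4 genes ran from -0.40 to 0.34, within the spread between probe sets of one gene (SD 0.53 on the log2 scale over 5157 genes). A dimmer Map2k2 probe set gave -0.69.

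**Figure D2:**
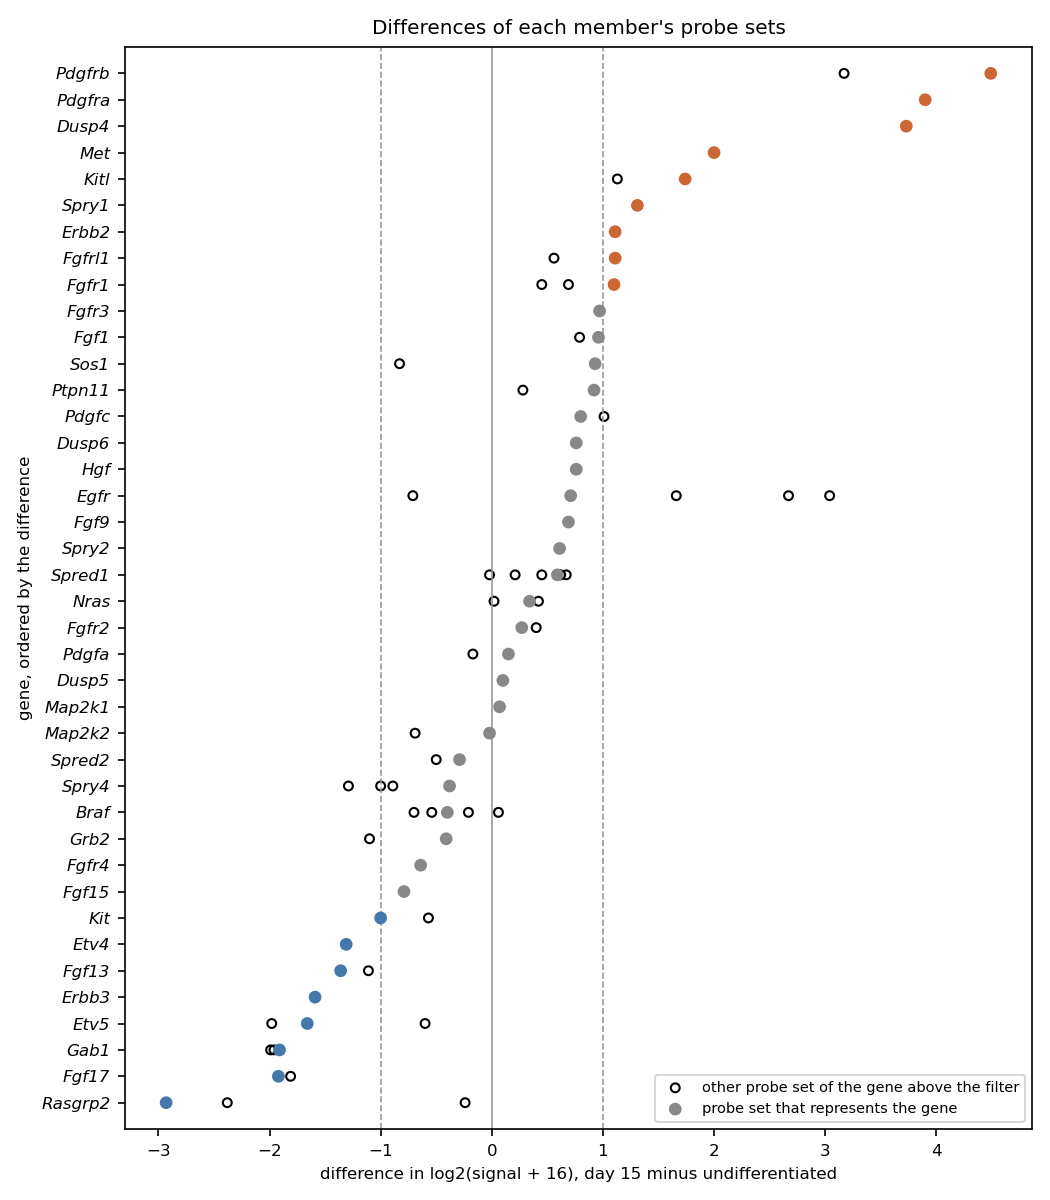
Difference in log2(signal + 16), day 15 minus undifferentiated, for every probe set above the filter of the 40 genes. Filled points represent the gene (orange at least 2-fold higher, blue at least 2-fold lower, grey between), open circles are its other probe sets, and dashed lines mark 2-fold. The 3 Gab1 probe sets nearly coincide, while those of Egfr run from -0.71 to 3.04.

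Feedback genes of the pathway did not move as a block: PEA3 factors were lower at day 15, and Dusp4 and Spry1 were higher. Etv5, an ETS transcription factor induced by FGF signalling, read 4985 before differentiation and 1572 at day 15 (3.17-fold lower, difference -1.66). Its other probe sets read 2362 and 585.1, and 604.3 and 392.6. Its relative Etv4 read 322.8 and 120.8 (2.67-fold lower, -1.31). Both measured PEA3 genes were lower, with signals at day 15 still above the controls without target.

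Dusp4, a nuclear phosphatase that removes phosphate from ERK, read 95.3 before differentiation and 1465 at day 15, 15.4-fold higher (difference 3.73). It has 1 probe set, and 1.5% of all genes had a difference as large or larger. The cytoplasmic ERK phosphatase gene Dusp6 read 785.6 and 1345 (1.71-fold higher, 0.76) and the nuclear one Dusp5 120.7 and 131.0 (0.10). On the higher side 1 of 3 phosphatase genes passed 2-fold (33.3%, against 16.5% of all genes), and 3 genes are too few to compare shares.

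Sprouty and Spred proteins block RAS activation below the receptors. Spry1 read 236.0 and 608.8 (2.58-fold higher, difference 1.31) and was the only one of the 5 past 2-fold (20%, against 16.5% of all genes). Spry2 read 1192 and 1824 (0.61) and Spred1 547.7 and 829.8 (0.59, with 1 of its 6 probe sets above the filter at -0.02). Spred2 was 1.22-fold lower. Spry4 was represented by a probe set at 551.0 and 420.8 (-0.38), but its other probe sets lay lower, at 486.5 and 190.1 (-1.29), 64 and 24.1 (-1.0) and 130.5 and 63.1 (-0.89). All 4 Spry4 probe sets had the same direction.

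Stem cell markers were lower on the day 15 array alongside the PEA3 factors, Gab1 and Fgf17, and their part in these losses was not tested. All 10 stem cell markers had negative differences and 6 were at least 2-fold lower (median -1.08). Dppa5a (14474 and 11467), Pou5f1 (7838 and 2932) and Tdgf1 (7191 and 3489) had the highest means. The list ran from -2.73 (Dppa3) to -0.19 (Klf4). Fgf17, Gab1, Etv5 and Erbb3 (-1.92, -1.91, -1.66 and -1.59) lay between Dppa3 and the next lowest marker, Pou5f1 (-1.41). Fgf13 (-1.36), Etv4 (-1.31) and Kit (-1.0) lay between Pou5f1 and Klf4. Rasgrp2 (-2.93) lay below every marker of the list.

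Other genes of the pathway came from a list of 93 outside the 49, also chosen with earlier results of these data known. Of these 86 were measured and 61 passed the filter. Past 2-fold on the higher side were 25 (41.0%), against 16.5% of all genes, and on the lower side 3 (4.92%), against 8.41%. Their median difference was 0.70, and genes past 2-fold were more often higher than lower over the whole array too (66.3%). The largest gains were of the ETS factor genes Ets1 (29.8 and 1035, at least 29.1-fold) and Elk3 (46.5 and 1065, 22.9-fold), of Flrt2 (30.2 and 663.9), whose membrane protein binds FGF receptors, of the immediate-early gene Fos (128.9 and 2060), of Phlda1 (188.4 and 2342) and of the exchange factor gene Sos2 (80.4 and 863.3, 10.7-fold). The 3 lower genes were Eras, a RAS gene of embryonic stem cells (3191 and 731.1, 4.36-fold), Fgf4, the FGF that stem cells themselves secrete (2115 and 712.6, 2.97-fold), and the RAS relative Mras (604.4 and 228.0, 2.65-fold). Next lowest were the ERK phosphatase gene Dusp9 (-0.82), Pdgfb (-0.65) and Fgf3 (-0.64), none past 2-fold. Probe sets above the filter ran from -1.55 to -0.03 for Fgf4 and from -1.35 to -0.48 for Mras. They ran from -0.65 to 0.36 for Pdgfb, in both directions, and from -0.64 to 0.0 for Fgf3.

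By role, 13 of 25 feedback and effector genes above the filter (median 1.04) were past 2-fold on the higher side (52%, against 16.5% of all genes). On the lower side were 0, against 8.41% of all genes. The counts were 4 and 0 of 7 receptors and co-receptors (57.1% higher), 4 and 0 of 11 adaptors and RAS regulators, 2 and 2 of 11 genes of the RAS and kinase cascade, and 2 and 1 of 7 ligands.

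**Figure D3:**
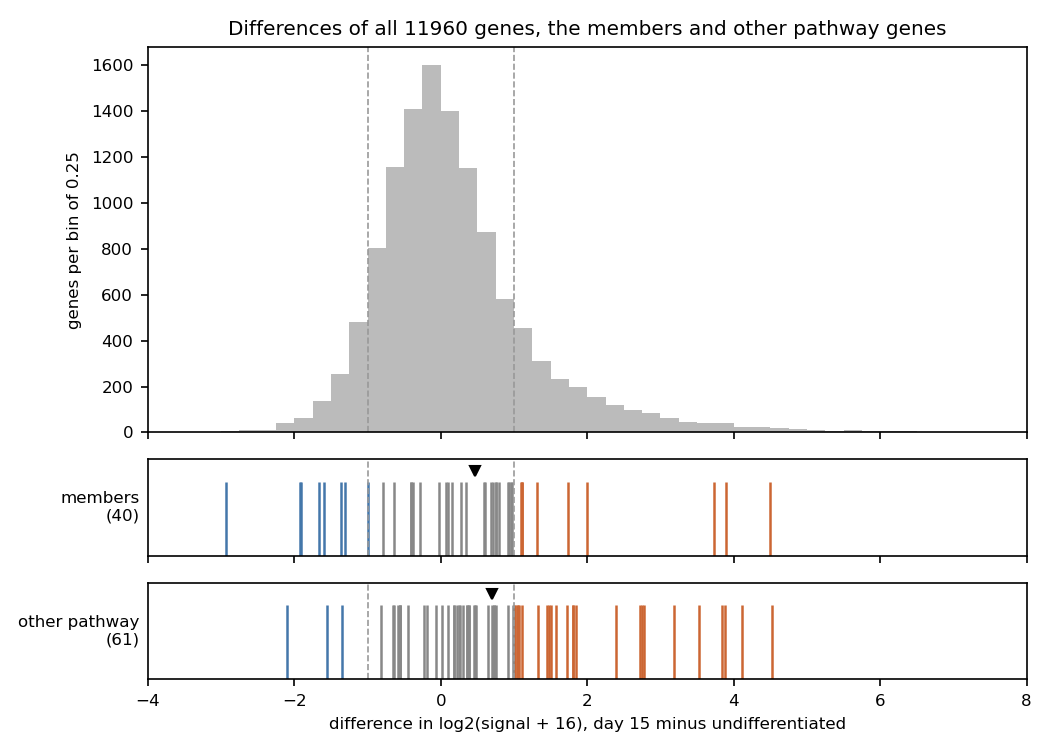
Differences in log2(signal + 16), day 15 minus undifferentiated, as a histogram of all 11960 genes above the filter (top), and as 1 tick per gene for the 40 genes and for 61 other pathway genes. Triangles mark the medians (0.46 and 0.70), dashed lines mark 2-fold, and orange and blue ticks lie past it.

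Agreement between probe sets was the one technical repeat the arrays offer, and it does not include variation between cultures. Of the 40 genes, 24 had more than 1 probe set above the filter, and in 19 of these all pointed the same way. The 5 with both directions were Pdgfa, Egfr, Sos1, Braf and Spred1, none of which was past 2-fold. Across the whole array, both directions occurred in 1552 of the 5157 genes that several such probe sets measured. Agreement was thus common over all genes too and does not set the list apart. Among the 17 genes past 2-fold, 10 had several probe sets above the filter, all in 1 direction within each gene. The remaining 7 rest on 1 probe set above the filter: Pdgfra, Erbb2, Erbb3, Met, Spry1, Dusp4 and Etv4.

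Of the 17 genes past 2-fold, 9 kept their side of the limit in each of 9 alternative settings that gave them a value. These were Pdgfra, Pdgfrb, Met and Dusp4 on the higher side, and Fgf17, Fgf13, Gab1, Rasgrp2 and Etv5 on the lower side. Settings that change only the filter leave a gene's difference as it was, so they could not move it across the limit. Leaving out probe sets named _a_at, _s_at or _x_at likewise changes nothing for a gene represented by another probe set. Pdgfra had a value in 7 of the 9 settings. Fgfrl1 stayed under the limit in 4 settings, Fgfr1 and Erbb2 in 3 each and Kit in 2. Kitl (0.70), Erbb3 (-0.76) and Etv4 (-0.43) fell short with the mean over probe sets and Spry1 (0.93) with scaling on the hybridization controls, and none of the 17 changed sign. The mean over probe sets takes in dim ones below 35.6 on both arrays. These read 2.5 and 3.6 for Erbb3, 15.6 and 27.3 for Etv4, and 15 and 23.8, and 33.1 and 20.5, for Kitl. Among the 23 genes between the limits 6 changed sign in at least 1 setting, namely Fgfr2, Pdgfa, Sos1, Nras, Map2k1 and Dusp5, and 4 passed 2-fold in at least 1, namely Fgf1, Fgf15, Fgfr3 and Egfr.

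**Figure D4:**
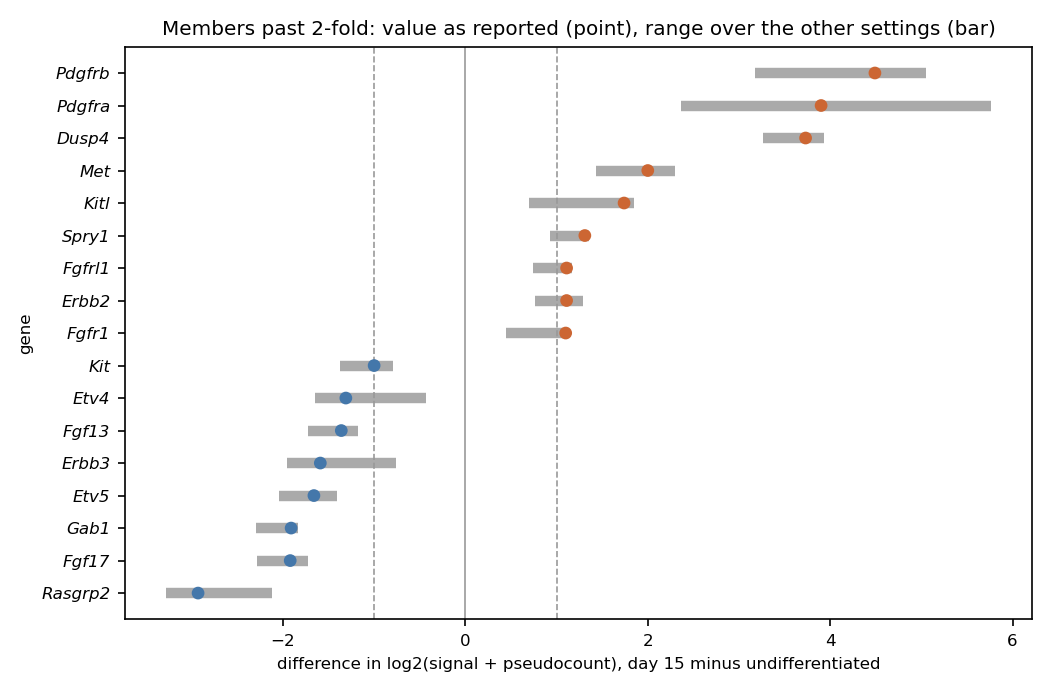
Difference on the log2 scale, day 15 minus undifferentiated, of the 17 genes past 2-fold: points give the reported value (pseudocount 16) and grey bars the range over the alternative settings. Dashed lines mark 2-fold: the bar of Dusp4 runs from 3.26 to 3.93, while that of Fgfr1 reaches down to 0.45.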

How the data were processed

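The authors deposited 1 linear signal intensity per probe set and array, already scaled to a trimmed mean (2% off each tail) of 250, as the values show. The summarising software and detection calls were not given in the sources used here. Per the labels' protocols, total RNA was column-purified with DNase and biotinylated by the Affymetrix protocol. Of 45101 probe sets, 64 controls were set aside, 34945 named 1 gene in the platform annotation, 932 named several (not used) and 9160 were not listed. Symbols were updated through RefSeq GRCm38.p6.

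Here log2(signal + 16) was computed in Python 3.11.15 (pandas 2.3.3, numpy 2.4.6). A gene was represented by its single-gene probe set with the highest mean over both arrays. The expression filter was the median, over all probe sets, of that mean (a signal of about 36.5), and genes below it were set aside. With 1 array per group no test was run. The steps were tested on simulated data.

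The members and lists were chosen with earlier results of these data known, so the choice of genes is not independent of them. All members were named. Of the other pathway genes the 6 highest and 6 lowest differences were named. Of each marker list up to 3 genes with the highest mean were named, plus fibroblast markers below 35.6. Thy1, Amn and Sox7 were added as markers that did not pass 2-fold. The bound of 35.6 was chosen after the data were seen. Alternatives covered the filter, the pseudocount, the probe set choice, the scaling and the fold limit.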

Additional observations from a re-analysis of the deposited data

How the results depend on the processing

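No paired analysis was possible because each group has 1 array, and leaving out an array was not possible for the same reason. The count of genes at least 2-fold higher (9) was 5 under a filter set at the 75th percentile, 5 with scaling on the hybridization controls, 20 at a 1.5-fold limit and 5 at 3-fold. The count at least 2-fold lower (8) was 5 with the mean over probe sets and 5 at 3-fold. Of the other pathway genes, 13 were higher under that stricter filter (25 as reported), and 1 was lower with the mean over probe sets and 1 without probe sets named _a_at, _s_at or _x_at (3 as reported). Over all genes, 907 were higher under the stricter filter (1975 as reported) and 2248 lower with scaling on the hybridization controls (1006 as reported). The stricter filter tests fewer genes. A changed fold limit moves a count by definition, and scaling on the hybridization controls divides every day 15 signal by a common factor. The mean over probe sets takes in dim probe sets below 35.6 on both arrays. The cause of the other shifts was not tested. The median of the list ran from 0.08, on the hybridization controls, to 0.47, with a pseudocount of 1. The difference of Pdgfra, at 4.3 in undifferentiated cells, was 5.76 with a pseudocount of 1 and 2.36 with a pseudocount of 64. Egfr ran from 0.34 to 2.67, the latter without probe sets named _a_at, _s_at or _x_at.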

Other observations

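Inhibitors of RAS and of ERBB receptors among the other pathway genes differed from one another. The genes below were picked after their values were seen. The RAS GTPase-activating protein genes Rasa3 (30.0 in undifferentiated cells and 294.5 at day 15), Rasa2 (169.4 and 384.1) and Nf1 (49.8 and 116.9) were at least 2-fold higher, while Rasa1 (1127 and 1468) and Rasal2 (114 and 138.4) were not and Rasal1 lay below 35.6 on both arrays (18.2 and 8.9). Errfi1, an inhibitor of ERBB kinases, read 343.2 and 1050, and Lrig1, which promotes removal of ERBB receptors, 97.4 and 307.5. Lrig3 (211.8 and 360.4) and the ubiquitin ligase gene Cbl (850.5 and 720.4) were within 2-fold. Hbegf, an EGF receptor ligand, read 103.8 and 310.8, and Egr1, a target of ERK signalling, 548.5 and 3694. Spred3 read 24.1 and 124.5 (at least 3.50-fold higher).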
